A study of Mus musculus with 26 samples.

Results

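Projection neuron identity transcription factors were examined in nuclei of the developing mouse cortex. The members are 9 genes taken by symbol from a fixed list, of 30406 genes listed in all 8 cortex libraries. Bcl11b, Fezf2, Tbr1, Tle4, Sox5, Zfpm2 and Ldb2 are the 7 factors of deep layer neurons, and Cux1 and Cux2 are the 2 factors of upper layer neurons. All 9 were detected and all 9 passed the filter on low counts in excitatory neurons.

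The libraries hold sorted nuclei from the prospective somatosensory (S1) cortex of male C57Bl/6N embryos at E15.5. Maternal immune activation (MIA) had been induced by an injection of the dam with poly(I:C), a synthetic mimic of viral double-stranded RNA, on E12.5, and control dams had received saline. Embryos were wild type (WT) or Csf1r-/-, a constitutive null for the receptor that microglia need for survival, so that microglia are missing throughout development rather than at one time. The 4 groups were WT saline, WT poly(I:C), Csf1r-/- saline and Csf1r-/- poly(I:C), with 2 libraries each, and the comparison asks whether MIA alters the expression and the separation of these factors with and without microglia. Littermates can sit in different libraries because fewer dams than libraries were used, so p-values measure the spread between these libraries and not between litters.

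Newborn projection neurons of the cortex start with overlapping programs of deep and upper layer genes, and cross-repression among the factors then separates them. FEZF2 and BCL11B (CTIP2) drive subcerebral identity in layer 5, TBR1 drives corticothalamic identity in layer 6 and represses Fezf2, and SOX5 holds back the subcerebral program in earlier-born deep layer neurons. CUX1 and CUX2 are homeodomain factors that mark upper layer neurons and shape their dendrites.

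The genes lie apart in the genome (mm10). Tbr1 is at chr2:61802930-61814114, Ldb2 at chr5:44472132-44799680, Cux2 at chr5:121856366-122050102 and Cux1 at chr5:136248135-136567490. Sox5 is at chr6:143828425-144781977, Bcl11b at chr12:107910403-108003602, Fezf2 at chr14:12342094-12348189, Zfpm2 at chr15:40655035-41104592 and Tle4 at chr19:14448150-14598051. No annotated gene overlaps Bcl11b, Fezf2, Tbr1 or Tle4. Sox5 is overlapped by 2 genes on its own strand and 5 on the other, Zfpm2 by 3 and 0, Ldb2 by 9 and 2, Cux1 by 3 and 1, and Cux2 by 0 and 2. The counts of Sox5, Zfpm2, Ldb2 and Cux1 can hold reads of the neighbours on their own strand. The Cux1 locus also encodes CASP, a Golgi protein without a homeodomain, whose transcripts cannot be told apart from CUX1 here.

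The 8 libraries held 43456 nuclei with at least 500 UMIs (counted RNA molecules) and 200 genes, of which 41539 remained after the removal of likely doublets, with 9274015 to 16454342 UMIs per library. The median UMIs per nucleus were 1453 to 2912, and pairs of libraries shared between 0 and 14 barcodes. One library labelled WT and another labelled Csf1r-/- went against their genotype labels. Csf1r had 23 and 11 UMIs in the WT saline libraries and 22 in WT poly(I:C) 1, but 0 in the library labelled WT poly(I:C) 2, where 0 nuclei were microglia-like and microglial markers had 47 UMIs. The library labelled Csf1r-/- saline 2 had 10 Csf1r UMIs, 7 microglia-like nuclei and 182 microglial marker UMIs, against 1 to 4 Csf1r UMIs and 60 to 91 marker UMIs in the other libraries labelled Csf1r-/-. Both carry their labelled group below, and where stated a value is also given without them. WT saline 1 stood apart in its cells: 52.5% of its nuclei were excitatory neurons against 68.2% to 76.5% elsewhere, and it gave 715 of the 848 nuclei of a cluster led by Ebf1, Isl1 and Six3, genes of ventral forebrain neurons. The part of that difference in dissected cells in any result was not tested.

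Nuclei were clustered without the 9 genes, so that their pattern over clusters was not built in by their own counts, although genes that vary with them took part. Clusters were named from markers that exclude the members, and unnamed ones are called by their leading genes. Excitatory neurons (29319 nuclei) were 8 clusters: migrating neuron-like (6702 nuclei in 2 clusters), Rorb- and Lrrtm3-led (5867), Cdh12- and Fn1-led (4875), Ntm- and Runx1t1-led (4572), corticothalamic-like (3246), hemoglobin-led with few UMIs (2192) and mitochondrial-led (1865). No cluster could be named callosal-like or subcerebral-like. The levels below are the gene's UMIs relative to all UMIs of a class in a library, scaled to a common total (CPM), given as mean ± SD over the 8 libraries. They compare classes for 1 gene, and not genes with each other. A bulk of nuclei cannot tell fewer nuclei with the gene from less RNA per nucleus, which is why detection per nucleus follows.

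Tle4, Tbr1 and Zfpm2 were highest in corticothalamic-like nuclei and next in Rorb- and Lrrtm3-led neurons, which also carried 5 of 8 corticothalamic markers at 2-fold or more over the other clusters, against 7 of 8 in corticothalamic-like nuclei. Tle4, a corepressor kept in corticothalamic neurons, was at 2494 ± 188 CPM in corticothalamic-like nuclei, 1172 ± 124 in Rorb- and Lrrtm3-led neurons and between 74.0 and 312 in the other excitatory classes. Tbr1 followed the same order with 476 ± 44.0 and 336 ± 62.0 CPM. Zfpm2 (FOG2), a cofactor of corticothalamic neurons, was at 401 ± 33.9 CPM in corticothalamic-like nuclei, 176 ± 28.1 in Rorb- and Lrrtm3-led neurons and 1.92 ± 1.37 in Cdh12- and Fn1-led neurons. For Tle4 and Zfpm2 the libraries of these classes did not overlap, while the lowest corticothalamic-like library for Tbr1 (410) lay just below the highest Rorb- and Lrrtm3-led one (411).

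Bcl11b, Fezf2 and Sox5 had their highest means in Rorb- and Lrrtm3-led neurons. Fezf2 was at 557 ± 43.0 CPM there, at 441 ± 74.2 in Ntm- and Runx1t1-led neurons and at 172 ± 21.0 in corticothalamic-like nuclei. Sox5 was at 2105 ± 240 CPM in Rorb- and Lrrtm3-led neurons, 1516 ± 184 in corticothalamic-like nuclei and 1357 ± 299 in Ntm- and Runx1t1-led neurons, and the libraries of the last pair of classes overlapped. Bcl11b was at 1040 ± 198 CPM in Rorb- and Lrrtm3-led neurons, 687 ± 135 in corticothalamic-like nuclei and 521 ± 165 in Ntm- and Runx1t1-led neurons. Ldb2 (CLIM1), a LIM domain binding protein of layer 5 neurons, had another order, with 240 ± 41.8 CPM in Ntm- and Runx1t1-led neurons, 202 ± 23.4 in Rorb- and Lrrtm3-led neurons and 58.6 ± 10.2 in corticothalamic-like nuclei. The libraries of the highest class and the next overlapped for Bcl11b, Fezf2 and Ldb2.

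The upper layer factors had the opposite order. Cux1 was at 433 ± 89.3 CPM in Cdh12- and Fn1-led neurons and 313 ± 71.7 in migrating neuron-like nuclei, against 15.2 ± 3.40 in Rorb- and Lrrtm3-led neurons and 22.2 ± 6.14 in corticothalamic-like nuclei. Cux2 was at 270 ± 72.1 CPM in migrating neuron-like nuclei and 199 ± 50.7 in Cdh12- and Fn1-led neurons, against 10.6 ± 4.02 and 9.87 ± 4.03 in the same deep classes. Hemoglobin-led low-UMI nuclei had Cux1 at 334 ± 90.8 and Cux2 at 292 ± 104 CPM, so that their mean was the highest of the excitatory classes for Cux2, with libraries that overlapped those of migrating neuron-like nuclei. For both genes the libraries of migrating neuron-like and Cdh12- and Fn1-led nuclei overlapped.

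**Figure D1:**
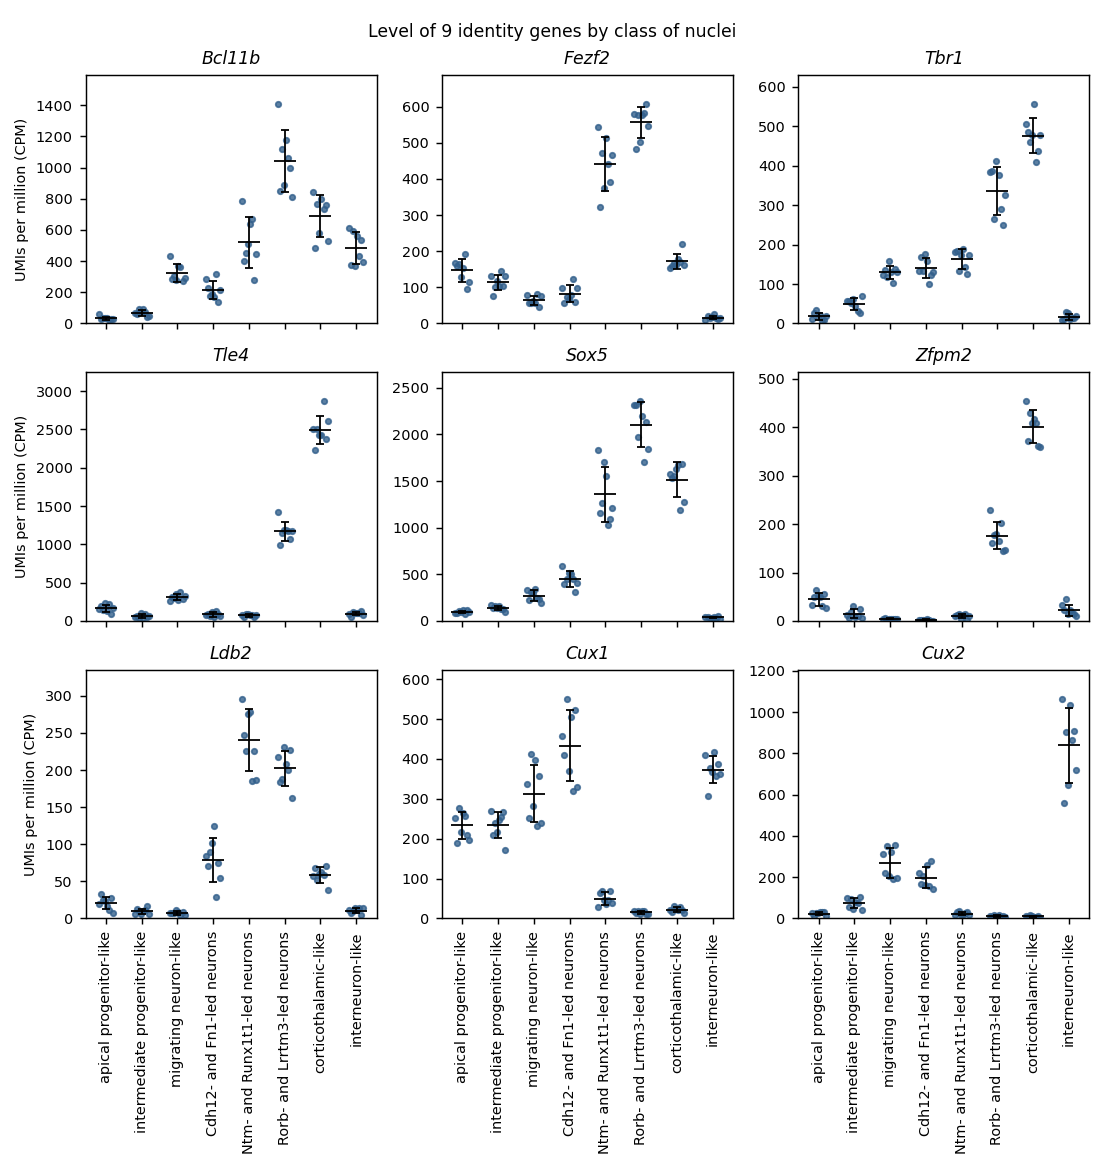
Level (CPM, vertical axes) of the 9 factors in 8 classes of nuclei, with points for the 8 libraries and bars for mean ± SD. The deep layer factors are high in corticothalamic-like, Rorb- and Lrrtm3-led or Ntm- and Runx1t1-led neurons, where Cux1 and Cux2 are low, and Cux2 is highest in interneuron-like nuclei (839).

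Several factors were not limited to projection neurons. Interneuron-like nuclei, whose type is born in the ventral forebrain, held Cux2 at 839 ± 181 CPM, above every excitatory class, together with Cux1 at 373 ± 34.6 and Bcl11b at 485 ± 102, whereas Fezf2 (16.5 ± 5.02) and Tbr1 (17.2 ± 7.45) were low. Fezf2 was at 147 ± 31.7 CPM in apical progenitor-like and 114 ± 21.7 in intermediate progenitor-like nuclei, and Cux1 was at 233 ± 33.5 and 234 ± 33.8. Tbr1 was at 217 ± 41.3 CPM in the 137 Cajal-Retzius-like nuclei, early-born neurons of the marginal zone in which Tbr1 is known. Tle4 was at 580 ± 107 CPM in the 31 microglia-like nuclei, from 31 UMIs in the 4 libraries that held any.

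To compare nuclei of different depth, each excitatory nucleus was thinned to 1000 UMIs, which kept 26747 nuclei and left out 2572 shallower ones. A factor counts as detected at 1 UMI or more, so a nucleus without it may still express it. Sox5 was detected in 48.3 ± 6.23% of excitatory nuclei (63.6% without thinning), Bcl11b in 34.2 ± 5.38% (52.5%), Tle4 in 32.1 ± 2.07% (43.1%), Fezf2 in 18.7 ± 2.29% (32.4%) and Tbr1 in 17.6 ± 2.54% (35.4%). Ldb2 was detected in 8.60 ± 1.52% (18.2%), Zfpm2 in 7.35 ± 1.18% (14.5%), Cux1 in 15.47 ± 3.03% (26.5%) and Cux2 in 11.4 ± 3.30% (20.6%). As a measure of free RNA, Tbr1 was detected in 1.90 ± 0.83% and Fezf2 in 1.83 ± 0.83% of interneuron-like nuclei, which should lack both, with median depths of 1768 UMIs there and 2168 in excitatory nuclei. In corticothalamic-like nuclei Tle4 was detected in 86.2 ± 4.21% and Cux1 and Cux2 in 2.02 ± 0.72% and 0.84 ± 0.33%. These shares are near that measure, which came from shallower nuclei (median 1768 UMIs, against 3294.5 in corticothalamic-like nuclei). It assumes that Tbr1 and Fezf2 in interneuron-like nuclei are free RNA. A lower share was seen elsewhere, with Zfpm2 detected in 0.24 ± 0.19% of Cdh12- and Fn1-led nuclei. The shares of Cux1 and Cux2 in corticothalamic-like nuclei are therefore not read as expression or as its absence. Whether they come from free RNA, missed doublets or low expression was not tested.

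Most excitatory nuclei showed deep layer factors alone. Of the thinned nuclei, 62.9 ± 5.21% had at least 1 of the 7 deep layer factors and neither upper layer factor, 8.95 ± 2.61% had an upper layer factor alone, 14.3 ± 2.42% had both kinds and 13.9 ± 2.83% had none of the 9. At least 3 deep layer factors were detected in 26.7 ± 4.94% of nuclei, and 3 or more together with an upper layer factor in 1.39 ± 0.37%.

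Nuclei with both kinds were unevenly spread over classes. They made up 25.3 ± 5.37% of migrating neuron-like, 24.3 ± 3.48% of Cdh12- and Fn1-led and 27.4 ± 6.13% of hemoglobin-led low-UMI nuclei, but 2.86 ± 1.01% of corticothalamic-like, 2.39 ± 0.73% of Rorb- and Lrrtm3-led and 4.52 ± 1.17% of Ntm- and Runx1t1-led nuclei. Nearly all corticothalamic-like and Rorb- and Lrrtm3-led nuclei had a deep layer factor (99.2% and 98.9%). Their shares are therefore those of upper layer detection there (2.86% and 2.40%). These are near the detection of Tbr1 and Fezf2 in interneuron-like nuclei and are not read as both kinds being expressed. Interneuron-like nuclei had the highest share, 30.7 ± 5.59%, where Bcl11b and Cux2 were the abundant members. With the likely doublets kept the mean share over excitatory nuclei was 14.5%.

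Both kinds met less often in a nucleus than if they were detected independently. The share expected from the separate shares of deep (77.2 ± 4.29%) and upper layer detection (23.2 ± 4.63%) was 17.8 ± 3.05%, and the observed share was 0.80 ± 0.02 of it, or -0.32 ± 0.04 on the log2 scale. Every library lay below 0, from -0.36 to -0.27. Within clusters the value was -0.05 ± 0.03, so most of the shortfall lay between clusters. At 2000 UMIs, in the 16325 nuclei that reached that depth, it was -0.12. This ratio moves toward 1 as the share of nuclei with a deep layer factor nears all nuclei, and the median log2 odds ratio, which does not have that limit, was -1.39 at 1000 and -1.55 at 2000 UMIs.

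Pairs of genes gave the same split. The odds ratio of detecting a pair of genes in the same nucleus, on the log2 scale, was below 0 in all 8 libraries for all 14 pairs of a deep and an upper layer factor, from -3.56 ± 0.63 for Zfpm2 and Cux2 (23 nuclei with both) to -0.75 ± 0.19 for Tbr1 and Cux1 (489 nuclei). Tbr1 and Cux2 were next at -0.80 ± 0.17, which does not differ from Tbr1 and Cux1 beyond the spread. Of the 21 pairs of deep layer factors 18 lay above 0 in all 8 libraries, and Cux1 and Cux2 were at 1.55 ± 0.25.

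The 21 deep layer pairs ran from -0.36 to 3.06. Tle4 and Zfpm2 had the highest value of all 36 pairs, 3.06 ± 0.32, followed by Sox5 and Zfpm2 at 1.71 ± 0.25. Tle4 and Ldb2, at -0.36 ± 0.29, were the 1 deep pair with a mean below 0, in 7 of 8 libraries. Ldb2 was at 1.31 ± 0.17 with Fezf2 and 1.40 ± 0.23 with Sox5, but at 0.07 ± 0.37 with Zfpm2 and 0.11 ± 0.41 with Tbr1. Bcl11b and Fezf2 lay above 0 in all 8 libraries with Tle4 (0.96 ± 0.18 and 0.26 ± 0.17), with Zfpm2 (0.98 ± 0.34 and 0.55 ± 0.41) and with Tbr1 (0.62 ± 0.19 and 0.35 ± 0.14).

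Within clusters most of these values came close to 0. The 14 deep and upper pairs ran from -0.70 to 0.03 with a median of -0.21, and 3 stayed below 0 in all 8 libraries: Sox5 with Cux1 (-0.29 ± 0.20), Ldb2 with Cux1 (-0.42 ± 0.15) and Ldb2 with Cux2 (-0.45 ± 0.39). Tle4 and Zfpm2 stayed above 0 in all 8 libraries at 0.70 ± 0.24, and Tle4 and Ldb2 below 0 in all 8 at -0.60 ± 0.28. Fezf2 and Tle4 went from 0.26 ± 0.17 over all excitatory nuclei to -0.35 ± 0.19 within clusters, below 0 in 7 of 8 libraries. Fezf2 with Sox5 (0.46 ± 0.23), with Ldb2 (0.42 ± 0.16) and with Bcl11b (0.42 ± 0.19), Sox5 with Ldb2 (0.44 ± 0.21) and Cux1 with Cux2 (0.48 ± 0.20) remained above 0 in all 8 libraries. So did Bcl11b with Sox5 (0.42 ± 0.17) and Tbr1 with Tle4 (0.16 ± 0.14).

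**Figure D2:**
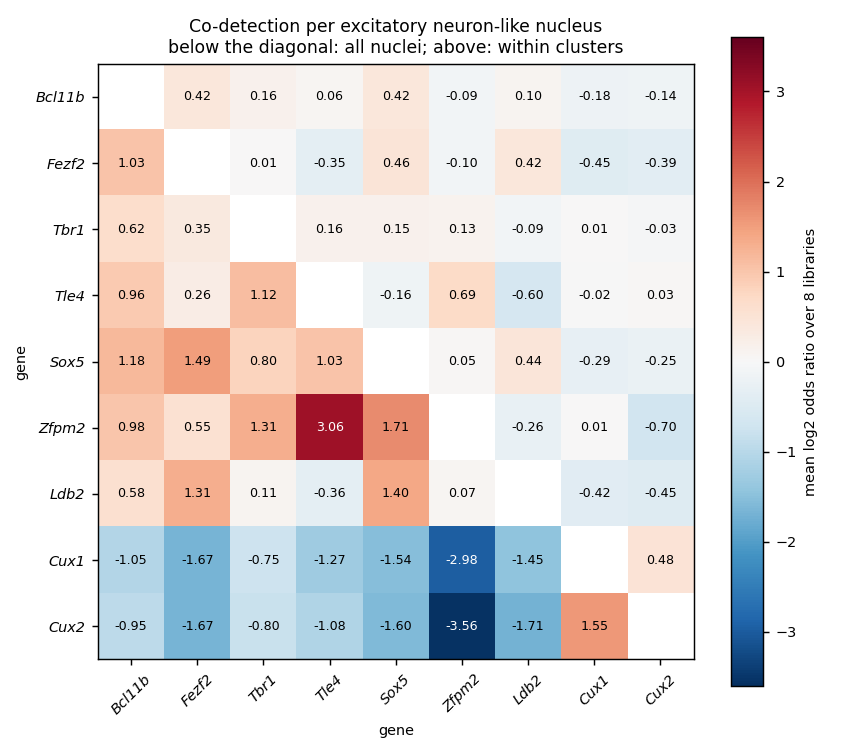
Log2 odds ratio of detecting each pair of the 9 factors in the same excitatory nucleus, as the mean over 8 libraries at 1000 UMIs. Values over all excitatory nuclei are below the diagonal, where all 14 deep and upper pairs are negative, and values within clusters are above it, where they run from -0.70 to 0.03.

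The genes most alike to each factor over clusters were picked from 7599 genes. How high r would run from such a search alone was not tested. Over the 15 clusters with at least 200 nuclei, the genes with the highest Pearson r to each factor were Cnrip1 (0.97) and Snrpn (0.97) for Bcl11b, 3110039M20Rik (0.93) and A830010M20Rik (0.91) for Fezf2, Ppp2r2b and Wnt7b (both 0.96) for Tbr1, and Cblb (0.84) and Cd47 (0.83) for Tle4. They were Tnik (0.94) and Ttc39b (0.92) for Sox5, Xylt1 (0.94) and Pcsk5 (0.93) for Zfpm2, Ndrg1 (0.95) and Sla (0.94) for Ldb2, Erbin (0.90) and Tcf12 (0.87) for Cux1, and Scn1a (0.85) and Syn2 (0.81) for Cux2. All clusters share the same libraries. Among the members themselves the r ran from 0.95 for Tbr1 and Sox5 to -0.61 for Sox5 and Cux1, and it was 0.73 for Cux1 and Cux2.

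The share of nuclei with both kinds overlapped between treatments and genotypes. It was 16.98% and 10.6% in the WT saline libraries, 15.8% and 12.3% in WT poly(I:C), 16.7% and 11.96% in Csf1r-/- saline, and 15.8% and 13.9% in Csf1r-/- poly(I:C). No group stood apart, and replicate 2 is below replicate 1 in all 4 groups. MIA minus saline was 0.41 percentage points (exact two-sided permutation test within genotype, p = 0.889) and null minus WT was 0.66 points (p = 0.778, exact), with an SD within groups of 3.15 points. The smallest p that the 36 arrangements allow is 0.0556. Without the 2 libraries against their labels MIA minus saline was 0.10 points and null minus WT 0.97 points. Both differences turned at 2000 UMIs, to -1.55 and -0.12 points, and null minus WT was -3.04 points without thinning.

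The ratio of observed to expected co-detection was closer to 1 after MIA in both genotypes. On the log2 scale it was -0.36 and -0.36 in WT saline, -0.34 and -0.29 in WT poly(I:C), -0.33 and -0.36 in Csf1r-/- saline, and -0.27 and -0.27 in Csf1r-/- poly(I:C). No MIA library overlapped a saline library of its genotype, and the difference was 0.07 in nulls and 0.04 in WT. Nuclei with a deep layer factor made up 77.2% to 79.7% of WT poly(I:C) and 69.2% to 75.5% of WT saline libraries, and 75.9% to 83.9% and 75.9% to 79.9% in nulls, and the part of these shares in the ratio was not tested. Averaged over genotypes the difference was 0.06 (exact permutation p = 0.0556, the smallest possible), and with replicate pairs kept together p was 0.125 (exact, the smallest possible there). Both permutations shuffled labels separately in each genotype, although the dam was treated and littermates of both genotypes can share a dam. The genotypes therefore may not be independent of each other. The difference was 0.04 without the 2 libraries against their labels, 0.04 within clusters and 0.01 at 2000 UMIs or without thinning. Within clusters the WT groups overlapped, with -0.07 and -0.04 in saline and -0.02 and -0.07 in poly(I:C), and the null groups did not. Null minus WT was 0.03 (exact p = 0.167), and 0.05 without the 2 libraries (exact p = 0.111, the smallest that the 9 arrangements left allow).

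**Figure D3:**
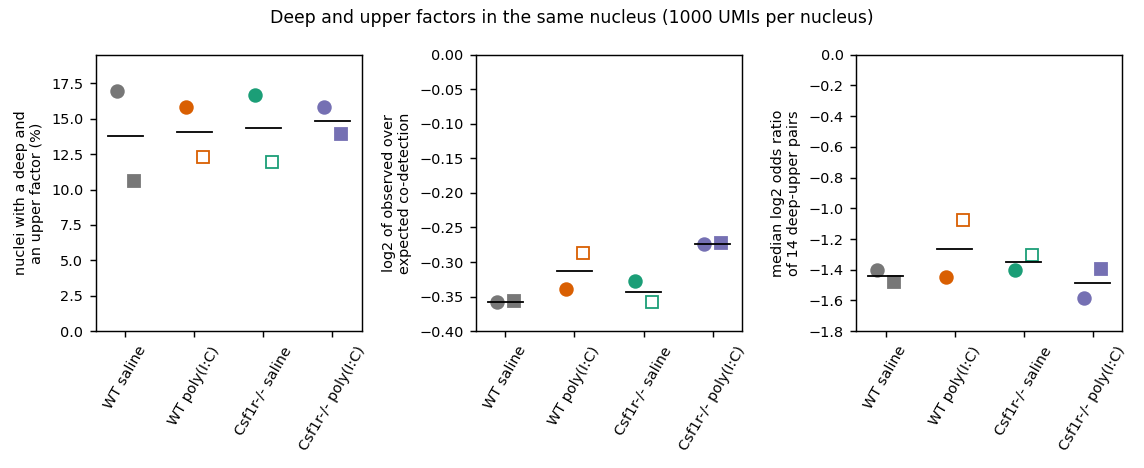
Co-detection of deep and upper layer factors in excitatory nuclei of each library at 1000 UMIs: percent of nuclei with both kinds, log2 of observed over expected share, and median log2 odds ratio over 14 deep and upper pairs. Circles are replicate 1, squares replicate 2, open symbols the libraries against their labels and lines group means; the percent is lower in replicate 2 of every group, and both log2 measures lie below 0 in all 8 libraries.

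The median log2 odds ratio of deep and upper pairs overlapped between the groups. Over the 14 deep and upper pairs it was -1.40 and -1.48 in WT saline, -1.45 and -1.08 in WT poly(I:C), -1.40 and -1.30 in Csf1r-/- saline, and -1.58 and -1.40 in Csf1r-/- poly(I:C). MIA minus saline was 0.02 (exact p = 0.833) and null minus WT -0.07 (exact p = 0.778), which was -0.00042 without the 2 libraries. The MIA difference has no stable sign, since it was -0.049 without the 2 libraries, -0.050 at 2000 UMIs and -0.24 without thinning. Of the 36 pairs 1 reached the smallest exact p of 0.0556 in each contrast, Tle4 with Zfpm2 for MIA minus saline (-0.35) and Bcl11b with Tbr1 for null minus WT (-0.20, and -0.08 without the 2 libraries against their labels), and no adjusted p over the 36 pairs was under 0.05 (permutation, smallest 1 and 0.944). Tle4 with Zfpm2 was at 3.79 and 3.03 in WT saline, 3.02 and 2.82 in WT poly(I:C), 2.99 and 3.12 in Csf1r-/- saline, and 2.88 and 2.81 in Csf1r-/- poly(I:C). The treatments did not overlap in either genotype, but WT saline 2 (3.026) and WT poly(I:C) 1 (3.024) nearly met. WT saline 1 was the highest of the 8, and the difference was -0.16 without it and -0.26 without the 2 libraries against their labels. For Bcl11b with Tbr1 it was -0.12 without Csf1r-/- saline 2 alone. This design could not reach the threshold for any pair, and 1 of 36 pairs at the smallest p can arise without any difference.

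Levels in excitatory nuclei were compared per library for the 9 factors. Bcl11b, which also specifies striatal neurons, had 432 and 454 CPM in WT saline, 656 and 598 in WT poly(I:C), 543 and 470 in Csf1r-/- saline, and 792 and 430 in Csf1r-/- poly(I:C). Both WT MIA libraries lay above both WT saline libraries, and the null MIA libraries lay on either side of the null saline ones. The WT difference was 0.43 on the log2 scale (SE 0.24, edgeR quasi-likelihood test with Benjamini-Hochberg adjustment over all genes, adjusted p = 0.980), which does not pass the test, and 0.48 without the 2 libraries against their labels. In nulls it was 0.26 (SE 0.24, adjusted p = 1, edgeR).

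Zfpm2 had 92.9 and 87.9 CPM in WT saline, 122 and 104 in WT poly(I:C), 111 and 100 in Csf1r-/- saline, and 133 and 84.6 in Csf1r-/- poly(I:C). Tle4 had 729 and 754 CPM in WT saline, 829 and 807 in WT poly(I:C), 750 and 740 in Csf1r-/- saline, and 845 and 612 in Csf1r-/- poly(I:C). For both, as for Bcl11b, the WT groups do not overlap in CPM and the null groups do. With TMM scaling, which the fit uses, Tle4 overlaps in WT (697 and 824 in saline, 790 and 811 in poly(I:C)) and Bcl11b and Zfpm2 do not. The WT log2 differences were 0.25 (SE 0.18) for Zfpm2 and 0.07 (SE 0.18) for Tle4, within 2 SE of 0 and with edgeR adjusted p of 0.980 and 0.986. Over all 13263 genes tested, WT MIA libraries in CPM all lay above saline for 18.5% and all below for 14.3%, against 3 of 9 and 0 of 9 members. In nulls this background was 8.07% and 6.91%, against 0 of 9.

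Pooled over excitatory nuclei, the upper layer factors leaned the other way in WT without separating the groups. Cux1 had 248 and 133 CPM in WT saline, 196 and 141 in WT poly(I:C), 234 and 162 in Csf1r-/- saline, and 173 and 175 in Csf1r-/- poly(I:C). Cux2 had 187 and 80.1, 130 and 91.8, 143 and 94.1, and 118 and 107 CPM in the same order. WT saline 1 was the highest of all 8 for both. The WT log2 differences of -0.21 for Cux1 and -0.30 for Cux2 turned to 0.18 and 0.30 without that library. Of its excitatory nuclei 12.6% were Rorb- and Lrrtm3-led (17.5% to 24.2% elsewhere) and 22.7% Cdh12- and Fn1-led (14.7% to 16.9%). Corticothalamic-like nuclei were 14.6% of them (9.49% to 12.8% elsewhere). The part of this mix of classes in the levels and co-detection shares of excitatory nuclei was not tested.

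The remaining factors overlapped between treatments in both genotypes. Fezf2 ranged from 198 to 307 CPM, Tbr1 from 191 to 286, Sox5 from 839 to 1355 and Ldb2 from 86.4 to 134 over the 8 libraries. Their WT log2 differences were 0.15, 0.06, 0.11 and 0.21, and their null differences 0.08, 0.11, 0.06 and 0.03. Each of these 8 values changes sign when a single library is left out. In WT, Fezf2 went to -0.12 without WT saline 1, and Tbr1, Sox5 and Ldb2 to -0.22, -0.16 and -0.05 without WT poly(I:C) 1. In nulls, Fezf2 went to -0.18 without Csf1r-/- poly(I:C) 1, and Tbr1, Sox5 and Ldb2 to -0.10, -0.10 and -0.16 without Csf1r-/- saline 1. Without Csf1r-/- poly(I:C) 1 the null differences of Bcl11b and Zfpm2 were -0.15 and -0.23. Without the 2 libraries against their labels the WT differences were 0.18, 0.30, 0.36 and 0.44 for these factors, and 0.35 for Zfpm2 and 0.07 for Tle4. Median differences over the 9 members were 0.11 in WT and 0.04 in nulls, against 0.01 and 0.01 over all genes.

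**Figure D4:**
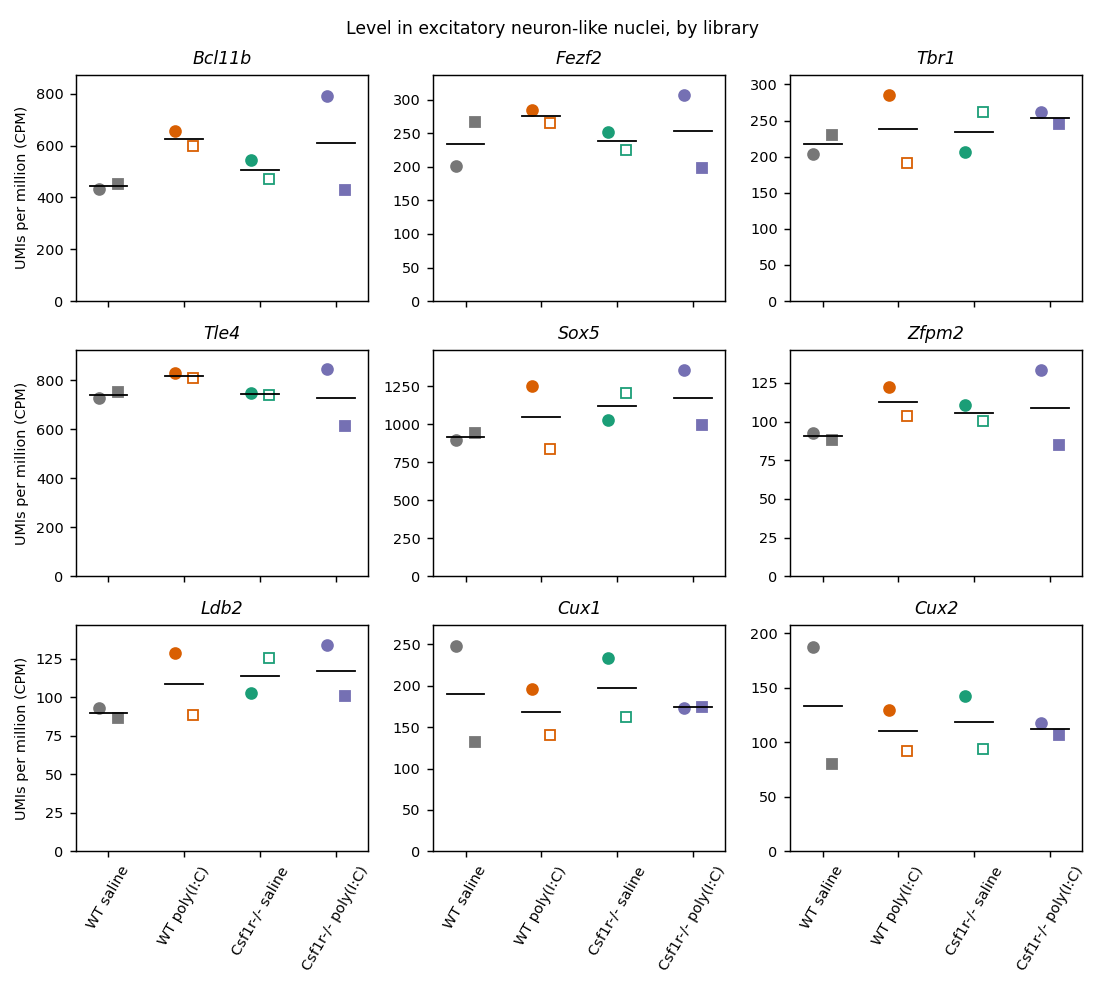
Level (CPM) of the 9 factors in excitatory nuclei of each library by group. Circles are replicate 1, squares replicate 2, open symbols the libraries against their labels and lines group means; Bcl11b, Tle4 and Zfpm2 do not overlap between WT saline and WT poly(I:C) in CPM (Tle4 does with TMM scaling), and no factor separates the Csf1r-/- groups.

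None of the 9 factors was called in any of the 5 contrasts (0 of 9 members each, edgeR adjusted p under 0.05), and neither was any other of the 13263 genes (background 0.00%). At an unadjusted p under 0.05 edgeR gave 586 genes (4.42%) for MIA in WT, 43 (0.324%) in nulls, 208 (1.57%) for the difference between these responses, 510 (3.85%) for null minus WT after saline and 30 (0.226%) after MIA, with 0 members in each. DESeq2 called 0, 1, 2, 2 and 0 genes and 0 members. The responses of the 2 genotypes differed by -0.22 (Zfpm2) to 0.24 (Cux2) on the log2 scale, with SE of 0.25 to 0.46 and edgeR adjusted p of 1.000. Null minus WT after saline ran from -0.18 (Cux2) to 0.32 (Ldb2, SE 0.21, edgeR adjusted p = 1.000), and after MIA from -0.14 (Tle4) to 0.20 (Sox5). With TMM scaling Ldb2 was at 88.6 and 94.45 CPM in WT saline and at 98.2 and 131 in Csf1r-/- saline. The 131 belongs to Csf1r-/- saline 2, a library against its label. Sox5 was at 1195 and 843 CPM in WT poly(I:C) and at 1289 and 1055 in Csf1r-/- poly(I:C). The 843 belongs to WT poly(I:C) 2, the other library against its label. In simulated libraries of this size and spread 20.0% of genes with a 2-fold change were found, so changes of the sizes seen here were mostly not detectable at this replication.

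**Figure D5:**
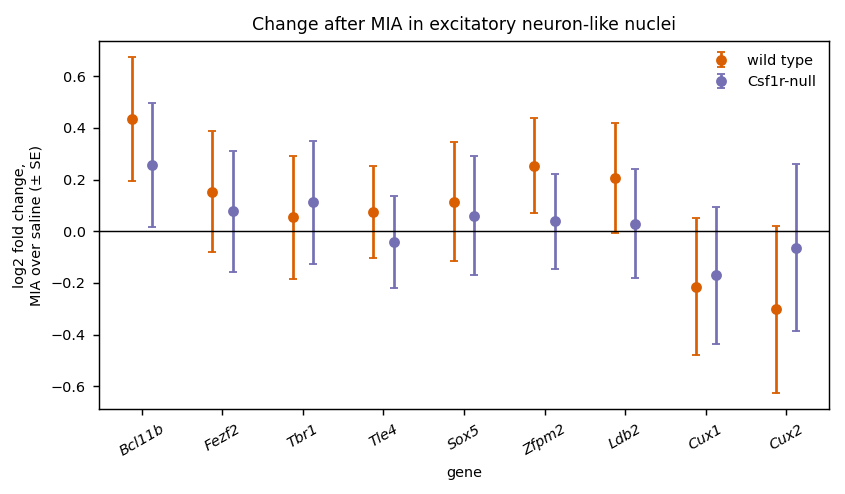
Log2 fold change of each factor after MIA in excitatory nuclei, in WT and in Csf1r-/-, with standard errors from edgeR. Values run from -0.30 (Cux2) to 0.43 (Bcl11b) in WT and from -0.17 (Cux1) to 0.26 (Bcl11b) in Csf1r-/-, and none passed the test.

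In 8 single classes, the members gave 335 tests over the 5 contrasts and none was called by edgeR, DESeq2 or with the replicate number as a block (edgeR background 0.00%). At an unadjusted p under 0.05 edgeR gave 12 of them, 3.58%, against 3.21% of all tests. The smallest adjusted p, 0.508 (edgeR), was that of Fezf2 in apical progenitor-like nuclei for MIA in WT, a difference of 0.66 on the log2 scale. With the block, other genes were called for MIA in WT, 48 in apical progenitor-like, 61 in migrating neuron-like and 132 in interneuron-like nuclei, and for null minus WT after saline 98 in migrating neuron-like and 113 in interneuron-like nuclei, but no member.

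Bcl11b was higher after MIA in WT in 7 of 8 classes, from -0.02 to 0.81 on the log2 scale, with the largest value in intermediate progenitor-like nuclei, and in nulls in 6 of 8, from -0.38 to 0.46. Tle4 was also higher in 7 of 8 in WT, from -0.04 to 0.31, and lower in 7 of 8 in nulls, from -0.56 to 0.02. Cux1 was higher in WT in 6 of 8 classes, from -0.39 to 0.61, and Cux2 in 4 of 8, from -0.18 to 0.29, unlike their pooled lean. Tbr1 and Sox5 were higher in 4 of 8 classes in both genotypes. In WT, Fezf2 was higher in 5 of 7 classes and Zfpm2 and Ldb2 in 4 of 6. The share of all genes that move one way in as many classes was not counted. These classes share their libraries and none of the differences passed the test.

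The level of Cux2 moved with the replicate number. In excitatory nuclei Cux2 was lower in replicate 2 in all 4 groups, by a mean of -0.62 on the log2 scale, and the same held in Cdh12- and Fn1-led nuclei (-0.61). Cux1 was lower in 3 of 4 groups in excitatory nuclei (-0.47) and in 4 of 4 in Cdh12- and Fn1-led nuclei (-0.51). Zfpm2 was lower in 4 of 4 groups in excitatory nuclei (-0.28) and in corticothalamic-like nuclei (-0.10), but in 1 of 4 in Rorb- and Lrrtm3-led nuclei (-0.05). Bcl11b was lower in 3 of 4 groups in excitatory nuclei (-0.29). It was lower in 4 of 4 in corticothalamic-like (-0.46) and Rorb- and Lrrtm3-led nuclei (-0.38), but in 1 of 4 in Cdh12- and Fn1-led nuclei (mean 0.32). The share of all genes lower in 4 of 4 groups was not counted, so these counts are not read as particular to the members. Over genes in general, libraries with the same replicate number also deviated together from their group means (correlations of 0.538 to 0.679). Replicate 2 libraries were counted with another software version and gene list and had fewer UMIs per nucleus in every group, and these cannot be told apart.

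Of 40 other genes of projection neuron identity 39 were tested, and 0 were called in each of the 5 contrasts by edgeR. At an unadjusted p under 0.05 there were 1 for MIA in WT, Pou3f1, a POU factor, at -0.50 (SE 0.19, edgeR adjusted p = 0.980), and 1 for null minus WT after saline, Emx1, a factor of dorsal forebrain progenitors, at -0.50 (SE 0.21, edgeR adjusted p = 1.000). The largest difference upward for MIA in WT was Nr4a2 at 0.41, and in nulls the largest were Sox4 at 0.27 and Nr4a2 at -0.30. Median differences of the list were 0.07 in WT and 0.03 in nulls.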

How the data were processed

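Nuclei of 8 libraries (4 groups of 2, by GEO's labels) were analysed from gene by barcode tables of UMI counts that the authors deposited without normalization. The study names Cell Ranger 6.0.1 and mm10, while the deposited headers name 3.1.0 for replicate 1 and 6.0.1 for replicate 2. Whether intronic reads were counted is not given in the sources used here. The replicate number therefore also stands for software, for the gene list (31053 or 32285 genes, joined by Ensembl identifier) and for the barcode list (6794880 barcodes or called ones). Sorted microglia libraries were not used here. The 9 genes, the marker lists and the tests were chosen with earlier results of these data known.

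A barcode counted as a nucleus from 500 UMIs and 200 genes on. The highest Scrublet scores were removed at 0.8% per 1000 nuclei. Nuclei were clustered (scanpy 1.11.5, leidenalg 0.10.2, 2000 variable genes, 30 components, 20 neighbours, resolution 1) without the 9 genes and Csf1r. Counts were thinned to 1000 UMIs for detection, with 0.5 added to each cell of the tables behind odds ratios over all nuclei and Mantel-Haenszel odds ratios within clusters. The expected share is the product of the shares with a deep and with an upper layer factor. Libraries were compared by exact permutation within genotype or treatment. UMIs summed per library and class were tested with edgeR 4.0.16 (quasi-likelihood, TMM, filterByExpr, all 4 groups in 1 fit) and, as an alternative, DESeq2 1.42.0 in R 4.3.3. The scripts were tested on simulated data. Python 3.11.15, numpy 2.4.6, scipy 1.17.1 and pandas 2.3.3 were used. Named were all 9 members, for each the 2 genes most alike over clusters (at least 20 CPM), and of the 40 other genes the one with the largest difference in each direction, since none was called, and those under an unadjusted p of 0.05, which were chosen after their values were seen.

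Libraries with the same replicate number deviated together from their group means (correlations of 0.538 to 0.679 over 6 pairs of groups). A batch and a pairing of libraries cannot be told apart here, and the labels give only the number. The edgeR fits of excitatory nuclei and of the classes and the co-detection measures over all pairs were therefore repeated with the replicate number as a block. The block changed no call of a member. It was not run for single pairs.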

Additional observations from a re-analysis of the deposited data

Results flagged for a closer look

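Of 67 tests of a member in a class, 2 had every MIA library on one side of saline in WT and on the other in Csf1r-/-, no more often than the 3.76% over all genes in the 8 classes. The p-values of the differences below belong to tests picked for that pattern. Bcl11b in intermediate progenitor-like nuclei had 44.5 and 46.8 CPM in WT saline, 91.4 and 71.5 in WT poly(I:C), 90.8 and 71.5 in Csf1r-/- saline, and 68.0 and 58.6 in Csf1r-/- poly(I:C), from 22 to 82 UMIs a library. The null response minus the WT response was -1.19 on the log2 scale (SE 0.37, unadjusted p = 0.00576, edgeR adjusted p = 0.999). Cux1 in corticothalamic-like nuclei had 20.7 and 12.9 CPM in WT saline, 21.8 and 28.1 in WT poly(I:C), 32.3 and 23.4 in Csf1r-/- saline, and 22.4 and 16.1 in Csf1r-/- poly(I:C), from 17 to 59 UMIs a library. Its responses differed by -1.05 (SE 0.46, unadjusted p = 0.0413, edgeR adjusted p = 1.000). Cux1 detection in these nuclei is near that of Tbr1 and Fezf2 in interneuron-like nuclei and is not read as expression or as its absence. Neither passed the adjusted test, and each holds 1 library in WT and 1 in the null that goes against its label.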

How the results depend on the processing

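With 2 libraries per group, a change of 2-fold was mostly missed, and a p over 0.05 says little about the size of a difference. Detection at 1000 UMIs misses low transcripts, and Zfpm2 and Ldb2 rest on the fewest nuclei. The genotype labels of 2 libraries are in doubt. No member was called under any setting tried for excitatory nuclei or for the 8 classes (another scaling, no filter on low counts, DESeq2, the replicate block, doublets kept, each library left out, and both doubtful libraries left out, where each applied). The settings for single classes were added after the data were seen.

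The number of genes called in excitatory nuclei, 0 in each contrast, became 29, 5, 5, 22 and 7 without the filter on low counts (MIA in WT, MIA in nulls, difference of responses, null minus WT after saline, and after MIA), and DESeq2 called 1 for MIA in nulls, 2 for the difference of responses and 2 for null minus WT after saline. The cause was not tested. The replicate number as a block treats libraries of the same number as pairs. With it 48 genes were called for MIA in WT in apical progenitor-like nuclei, 3 in intermediate progenitor-like and 61 in migrating neuron-like nuclei. For the same contrast it gave 2 in corticothalamic-like, 1 in Rorb- and Lrrtm3-led and 132 in interneuron-like nuclei. DESeq2 called 20 in apical progenitor-like and 16 in interneuron-like nuclei for this contrast. The block gave 0 genes in excitatory nuclei in every contrast, and left the co-detection difference of 0.06 after MIA with p = 0.125 (exact permutation).

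At 2000 UMIs the percent of nuclei with both kinds averaged 26.7, and its differences became -1.55 points (MIA minus saline) and -0.12 (null minus WT). Without thinning it averaged 30.03, with -3.04 for null minus WT. With Bcl11b, Fezf2, Tbr1 and Tle4 as the 4 deep layer factors it was 10.7, and with at least 2 UMIs required it was 4.38. The log2 ratio of observed to expected averaged -0.12 at 2000 UMIs, -0.079 without thinning, -0.051 within clusters, -0.45 with 4 deep layer factors and -0.90 with at least 2 UMIs. Its null minus WT difference turned to -0.0094 without thinning, -0.020 over all nuclei, -0.00086 within clusters and -0.0067 with at least 2 UMIs. The median log2 odds ratio averaged -1.55 at 2000 UMIs, -1.14 without thinning, -0.18 within clusters, -1.10 with 4 deep layer factors and -2.11 with at least 2 UMIs. Its MIA minus saline difference turned to -0.050 at 2000 UMIs, -0.24 without thinning, -0.029 over all nuclei, -0.012 with doublets kept and -0.049 without the 2 libraries against their labels, and null minus WT to 0.050 without thinning.

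Leaving out 1 library at a time moved MIA minus saline in the percent of nuclei with both kinds between -1.19 and 2.00 points and null minus WT between -0.94 and 2.26. For the median odds ratio these ran from -0.072 to 0.11 and from -0.16 to 0.023, and for the log2 ratio of observed to expected from 0.04 to 0.07 and from 0.01 to 0.04. WT saline 1 and WT poly(I:C) 1 turned most of the WT responses of the members. These ran from 0.30 to 0.57 for Bcl11b, -0.12 to 0.48 for Fezf2, -0.22 to 0.30 for Tbr1, -0.046 to 0.20 for Tle4, -0.16 to 0.36 for Sox5, 0.17 to 0.35 for Zfpm2, -0.050 to 0.44 for Ldb2, -0.53 to 0.18 for Cux1 and -0.73 to 0.30 for Cux2. The null responses ran from -0.15 to 0.55 for Bcl11b, -0.18 to 0.27 for Fezf2, -0.10 to 0.35 for Tbr1, -0.20 to 0.087 for Tle4, -0.10 to 0.23 for Sox5, -0.24 to 0.25 for Zfpm2, -0.16 to 0.23 for Ldb2, -0.37 to 0.046 for Cux1 and -0.30 to 0.20 for Cux2. The differences of responses ran from -0.58 to 0.10 for Bcl11b, -0.43 to 0.19 for Fezf2, -0.21 to 0.33 for Tbr1, -0.28 to 0.0061 for Tle4, -0.32 to 0.22 for Sox5, -0.49 to -0.03 for Zfpm2, -0.43 to 0.079 for Ldb2, -0.35 to 0.34 for Cux1 and -0.36 to 0.64 for Cux2. Without both libraries against their labels the difference of responses became -0.35 for Cux1 and -0.20 for Cux2.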

Other observations

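Genes outside the member list that were set beside it gave few values of note. The responses of the genotypes differed most for Nr4a2 (-0.71 on the log2 scale) and Tshz2 (0.67), and null minus WT after saline was -0.56 for Neurod1, a factor of newborn neurons, and 0.71 for Tshz3. After MIA null minus WT was -0.38 for Lmo4 and 0.53 for Tshz2. None of these differences passed the edgeR test. For Tshz3, Lmo4 and Tshz2 a library against its label held the outlying value with TMM scaling. Tshz3 was at 171 and 198 CPM in WT saline, 190 in Csf1r-/- saline 1 and 413 in Csf1r-/- saline 2. Lmo4 was at 93.1 CPM in WT poly(I:C) 1 and 150 in WT poly(I:C) 2, against 102.5 and 83.2 in Csf1r-/- poly(I:C). Tshz2 was at 13.8 and 6.02 CPM, against 14.1 and 15.1, in the same order.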
